A study of Mus musculus with 6 samples.

Results

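The TLR adaptor and IRAK-TRAF kinase genes carry the signal of Toll-like receptors from the membrane towards NF-κB and IRF3. The 10 genes described here were chosen by symbol among 24411 genes of the count tables. The rule uses no measured value, but earlier results of these data were known when it was set. They are the adaptor genes Myd88, Ticam1, Ticam2 and Tirap, the IRAK family genes Irak2, Irak3 and Irak4, and Traf6, Traf3 and Tbk1. RNA-seq was performed on primary microglial cells (PM), which were shaken off mixed glial cultures made from pooled brains of 3-day-old ICR mice. PM in one group (3 libraries) received GSK-J4 (10 μM), an inhibitor of the H3K27 demethylase JMJD3. PM in the other group (3 libraries) received GSK-J4 (10 μM) together with LPS (10 ng/ml), the bacterial ligand of TLR4, and the labels give 4 h of treatment. Both groups carried the inhibitor, so each comparison measures the response to LPS in its presence. Untreated PM and PM given LPS only were not analysed here. The study calls its replicates independent samples, whereas the labels do not say whether they were separate cultures, so p values measure the spread between these libraries.

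TLR4 uses a pair of adaptor sets. At the plasma membrane Tirap brings Myd88 to the receptor, and Myd88 gathers the IRAK kinases, which act through the ubiquitin ligase Traf6 on NF-κB. From endosomes Ticam2 (TRAM) brings in Ticam1 (TRIF), which signals through Traf3 and the kinase Tbk1 to IRF3 and the type I interferon genes.

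STAR assigned 2597505 to 3472716 fragments to genes in each library. The ribosomal precursor Rn45s held 22.2 to 32.4% of them with GSK-J4 and 45.8 to 48.1% with LPS + GSK-J4. Outside Rn45s, Mir6236 and Lars2, treated here as ribosomal, 1499693 to 2443344 and 1374377 to 1444886 counts were left, respectively. Levels are given as counts per 1000000 (CPM) after TMM scaling, where 3 counts are worth 0.673 to 1.24 CPM. Library 3 stood apart in both groups. Its chi-square per degree of freedom against libraries 1 and 2 was 5.81 to 12.5, against 2.12 and 2.32 between libraries 1 and 2. All 10 microglial markers had counts and summed to 3262 to 3383 CPM with GSK-J4 and 2593 to 2735 CPM with LPS + GSK-J4, and 2 of the 10 fell. Markers of other glia were also present. The sum of 8 astrocyte markers was 53.9 to 59.4 CPM and 131 to 159 CPM in the same order, with 3 of 7 tested higher. That of 9 oligodendrocyte lineage markers was 189.9 to 221 CPM and 366 to 423 CPM, with 5 of 7 tested higher. That of 5 neuronal markers was 10.9 to 11.2 CPM and 26.8 to 30.1 CPM, with both of those tested higher. Endothelial markers (Cldn5 at 0) summed to 13.9 to 21.2 CPM and 25.0 to 62.4 CPM, with 1 of 2 tested higher. Fibroblast markers overlapped at 71.8 to 262 CPM and 132 to 393 CPM, and neutrophil and T cell markers did not exceed 5.07 CPM, with S100a9, Cd3d and Cd3g at 0. The part of these shifts in the results was not tested. In bulk libraries fewer cells of a type and less RNA per cell cannot be told apart.

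The 10 genes did not move as a block. After LPS, Myd88 and Ticam1 rose and Ticam2 and Irak2 fell, while 5 of the 9 genes tested did not pass and Irak4 was too low to test. A gene was called when its p value in edgeR's quasi-likelihood test, adjusted by the Benjamini-Hochberg method over 10133 genes, was no higher than 0.01. This threshold called 13.9% of all genes (8.42% higher and 5.46% lower) and 4 of the 9 genes (2 higher and 2 lower). With the study's additional limit on the log2 fold change, 1.5 in either direction, 3.76% of all genes (2.95% higher and 0.809% lower) and 1 of the 9, Ticam2, were called. The groups did not overlap for 7 of the 9 genes, of which 4 were higher and 3 lower, beside 38.2% of all genes (19.8% higher and 18.4% lower). The median log2 fold change was 0.10 for the 9 genes and -0.00064 for all genes, and the median of its absolute value was 0.62 and 0.32.

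**Figure D1:**
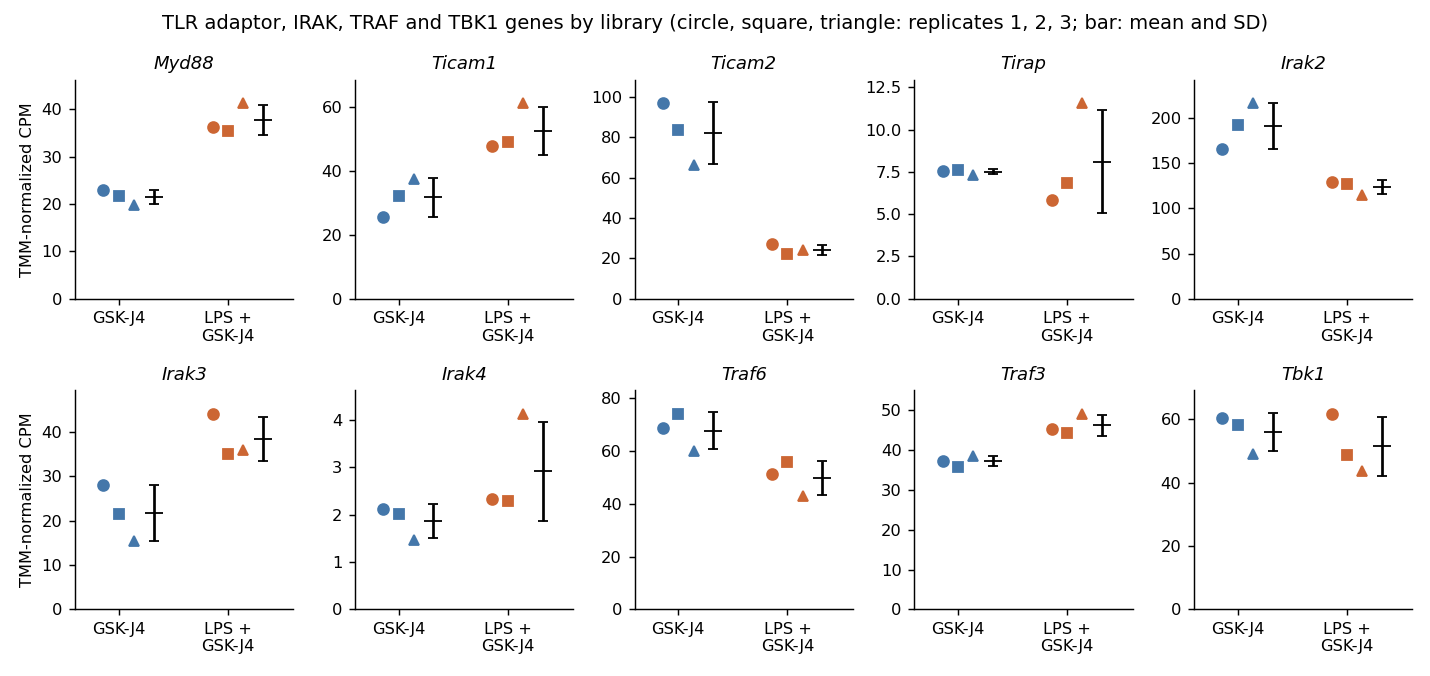
TMM-normalized CPM (linear axes from 0) of the 10 genes in the 3 GSK-J4 libraries (blue) and the 3 LPS + GSK-J4 libraries (orange), with circles, squares and triangles for replicates 1, 2 and 3 and the mean and SD in black. The groups are apart upwards for Myd88 and Ticam1, apart downwards for Ticam2 and Irak2, and overlap for Tirap and Tbk1.

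The adaptor that links TLR4 to Ticam1 changed most. Ticam2 (mm10, chromosome 18, 46557291 to 46574533, minus strand) was at 97.0, 83.5 and 66.4 CPM in GSK-J4 libraries 1, 2 and 3 and 26.9, 22.1 and 24.0 CPM in LPS + GSK-J4 libraries 1, 2 and 3. Each LPS + GSK-J4 library lay far below the lowest GSK-J4 library. The fitted level fell 3.40-fold, with means from 82.3 ± 15.3 to 24.3 ± 2.42 CPM (SD, n = 3; log2 fold change -1.76, SE 0.17, adjusted p = 1.65e-06). Of the 10133 genes tested, 51 had a lower log2 fold change. Leaving out any single library kept both thresholds, with values from -1.89 to -1.63, and the value without both libraries numbered 3 was -1.87 (adjusted p = 8.94e-10).

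Ticam2 shares the stretch from 46560235 to 46574533 with Tmed7, a gene of the early secretory pathway on the same strand, and fragments on exons common to both are counted for neither. Tmed7 had 196 ± 23.0 CPM with GSK-J4 and 159 ± 30.6 CPM with LPS + GSK-J4 (SD, n = 3; log2 fold change -0.31, SE 0.14, adjusted p = 0.146), and its groups overlapped. Counts of Ticam2 per count of Tmed7, which do not depend on scaling, were 0.525, 0.375 and 0.366 in GSK-J4 libraries 1, 2 and 3 and 0.144, 0.135 and 0.190 in LPS + GSK-J4 libraries 1, 2 and 3. The ratio was lower in every LPS + GSK-J4 library.

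Ticam1, the partner of Ticam2 that reaches Traf3 and Tbk1, went the other way. Ticam1 (chromosome 17, 56269319 to 56276786, minus strand) was at 25.5, 32.1 and 37.4 CPM in GSK-J4 libraries 1, 2 and 3 and 47.6, 48.8 and 61.1 CPM in LPS + GSK-J4 libraries 1, 2 and 3. The groups did not overlap, and library 3 was the highest of each. The fitted level rose 1.67-fold, with means from 31.7 ± 5.97 to 52.5 ± 7.47 CPM (SD, n = 3; log2 fold change 0.74, SE 0.17, adjusted p = 0.00547). This call was lost without GSK-J4 library 1, at a log2 fold change of 0.60 (adjusted p = 0.0427), without GSK-J4 library 2, at 0.75 (adjusted p = 0.0223), without LPS + GSK-J4 library 2, at 0.79 (adjusted p = 0.0177), and in DESeq2, at 0.69 (adjusted p = 0.0122). Without both libraries numbered 3 it held at 0.75 (adjusted p = 0.000739). Counts of Ticam2 per count of Ticam1 were 3.81, 2.60 and 1.77 in GSK-J4 libraries 1, 2 and 3 and 0.566, 0.453 and 0.392 in LPS + GSK-J4 libraries 1, 2 and 3. Ticam2 thus had more counts than Ticam1 in all GSK-J4 libraries and fewer in all LPS + GSK-J4 libraries. These counts are not scaled to length. Ticam2 has 5792 exon bases and Ticam1 2992, so which gene had more counts depends partly on length.

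Myd88, the adaptor common to most Toll-like receptors and the IL-1 receptor family, also rose. Myd88 (chromosome 9, 119335934 to 119341411, minus strand) was at 22.9, 21.8 and 19.8 CPM in GSK-J4 libraries 1, 2 and 3 and 36.3, 35.5 and 41.3 CPM in LPS + GSK-J4 libraries 1, 2 and 3. Both groups were narrow and they did not overlap. Slc22a14, which overlaps the whole of Myd88 on the same strand, had a mean of 0.167 counts per library. The exon bases common to both were not measured. Fragments of Myd88 counted for neither gene are therefore not excluded. The fitted level of Myd88 rose 1.74-fold, with means from 21.5 ± 1.56 to 37.7 ± 3.15 CPM (SD, n = 3; log2 fold change 0.80, SE 0.17, adjusted p = 0.00239). Without GSK-J4 library 2 the value was 0.80 (adjusted p = 0.0143), which is not called, and without both libraries numbered 3 it was 0.69 (adjusted p = 0.00292).

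Tirap, which tethers Myd88 to the membrane, was low and did not pass the test. Tirap (chromosome 9, 35184551 to 35200291, minus strand) was at 7.55, 7.63 and 7.33 CPM in GSK-J4 libraries 1, 2 and 3 and 5.85, 6.87 and 11.6 CPM in LPS + GSK-J4 libraries 1, 2 and 3. The LPS + GSK-J4 libraries lay on both sides of the GSK-J4 libraries (log2 fold change 0.10, SE 0.30, adjusted p = 0.856). The sign turned without LPS + GSK-J4 library 3, at -0.24 (adjusted p = 0.643), and without both libraries numbered 3, at -0.24 (adjusted p = 0.642). With 15 to 34 counts per library, its standard error was the largest of the 9 genes.

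The sequences around the starts of 3 of the 4 called genes are shown because Myd88 and Ticam1 rose and Irak2, described below, fell. Ticam2 has no entry among the windows used. The 3 sequences are RefSeq windows of GRCm38.p6 (mm10) from 250 bases before to 50 bases after the start, 5′ to 3′ on the strand of the gene, at chr9:119339969-119340268 (minus) for Myd88, chr17:56276718-56277017 (minus) for Ticam1 and chr6:113638217-113638516 (plus) for Irak2. Capitals mark a match to the core of the interferon-stimulated response element (ISRE), which is GAAA, any 2 bases, and GAAA.
Myd88: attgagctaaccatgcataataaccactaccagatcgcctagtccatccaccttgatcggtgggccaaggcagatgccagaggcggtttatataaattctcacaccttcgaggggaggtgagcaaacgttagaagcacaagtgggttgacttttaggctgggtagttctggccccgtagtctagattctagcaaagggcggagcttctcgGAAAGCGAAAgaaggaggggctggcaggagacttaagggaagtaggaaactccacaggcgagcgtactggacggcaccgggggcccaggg
Ticam1: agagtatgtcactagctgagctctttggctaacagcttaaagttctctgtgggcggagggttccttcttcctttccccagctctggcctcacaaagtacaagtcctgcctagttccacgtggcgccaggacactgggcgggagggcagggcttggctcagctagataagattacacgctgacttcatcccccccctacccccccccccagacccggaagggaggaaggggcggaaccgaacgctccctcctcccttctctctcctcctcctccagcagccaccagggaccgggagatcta
Irak2: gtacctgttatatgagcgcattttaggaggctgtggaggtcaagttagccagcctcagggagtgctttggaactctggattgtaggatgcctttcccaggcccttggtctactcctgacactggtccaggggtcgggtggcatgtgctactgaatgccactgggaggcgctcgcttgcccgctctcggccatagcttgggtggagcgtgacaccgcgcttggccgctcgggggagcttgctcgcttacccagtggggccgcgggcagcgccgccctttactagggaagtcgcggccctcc
The match in Myd88 begins 40 bases before the RefSeq start. That window lies wholly inside the span of Myd88 given above, which comes from another annotation. The start used here is therefore not the outer end of that span. The ISRE core and the NF-κB consensus were searched on both strands. Of all 32851 windows of the same length, 3.44% held the ISRE core and 8.46% the NF-κB consensus. Of 11 windows of the 9 genes other than Ticam2, 1 held the ISRE core (Myd88) and 1 the NF-κB consensus (Traf3, 10 bases before the start). The windows of Ticam1 and Irak2 held neither set of letters, and a match does not show that a factor was bound.

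Among the IRAK genes, Irak2 fell and Irak3 lay on the threshold with the opposite sign. Irak2 (chromosome 6, 113638467 to 113695026, plus strand), which sustains signalling from Myd88 to Traf6, was at 165, 192 and 216 CPM in GSK-J4 libraries 1, 2 and 3 and 129.6, 127 and 114 CPM in LPS + GSK-J4 libraries 1, 2 and 3. Every LPS + GSK-J4 library was below every GSK-J4 library. The fitted level fell 1.54-fold, with means from 191 ± 25.6 to 124 ± 8.14 CPM (SD, n = 3; log2 fold change -0.62, SE 0.13, adjusted p = 0.00208). The call was lost without GSK-J4 library 2, at a log2 fold change of -0.63 (adjusted p = 0.0102), GSK-J4 library 3, at -0.53 (adjusted p = 0.0119), or LPS + GSK-J4 library 2, at -0.64 (adjusted p = 0.0142), and held without both libraries numbered 3, at -0.47 (adjusted p = 0.00130).

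Irak3 (IRAK-M; chromosome 10, 120141648 to 120202130, minus strand), which restrains the pathway in macrophages, was at 28.1, 21.5 and 15.4 CPM in GSK-J4 libraries 1, 2 and 3 and 44.1, 35.1 and 35.9 CPM in LPS + GSK-J4 libraries 1, 2 and 3. The groups did not overlap, and library 1 was the highest of each. The means were 21.7 ± 6.34 and 38.4 ± 4.97 CPM (SD, n = 3; log2 fold change 0.80, SE 0.21, adjusted p = 0.0101), so the change was as large as that of Myd88 and just missed the threshold. It passed without GSK-J4 library 1, at a log2 fold change of 1.02 (adjusted p = 0.00389), without LPS + GSK-J4 library 3, at 0.84 (adjusted p = 0.00293), and without both libraries numbered 3, at 0.68 (adjusted p = 0.00533). It also passed with unstranded counts, at 0.77 (adjusted p = 0.00904), and with no filter, at 0.74 (adjusted p = 0.00140). In all, it passed in 6 of 15 alternatives and was not called in 9. Those 9 included the DESeq2 Wald test, at 0.76 (adjusted p = 0.0220). They also included omission of GSK-J4 library 2, at 0.78 (adjusted p = 0.0390), and of LPS + GSK-J4 library 1, at 0.68 (adjusted p = 0.0425).

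The balance of Irak2 to Irak3 and Myd88 was also taken within single libraries. Counts of Irak2 per count of Irak3 were 5.88, 8.91 and 14.0 in GSK-J4 libraries 1, 2 and 3 and 2.94, 3.62 and 3.18 in LPS + GSK-J4 libraries 1, 2 and 3. Counts of Irak2 per count of Myd88 were 7.22, 8.81 and 10.9 and 3.57, 3.58 and 2.77 in the same order. Both ratios were lower in every LPS + GSK-J4 library. Since the log2 fold changes of Irak3 and Myd88 (both 0.80) were larger in size than that of Irak2 (-0.62), more of each shift came from the denominator, and the ratios add no support to the decrease of Irak2. All 4 ratios of counts given here were chosen after the values were seen and are a description, with no test.

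Irak4 (chromosome 15, 94543643 to 94581815, plus strand), the kinase that joins Myd88 first, was near the limit of counting. It had 9, 9 and 4 counts in GSK-J4 libraries 1, 2 and 3 and 6, 6 and 10 counts in LPS + GSK-J4 libraries 1, 2 and 3, or 1.87 ± 0.353 and 2.92 ± 1.05 CPM (SD, n = 3). Without the filter its log2 fold change was 0.54 (SE 0.53, adjusted p = 0.531), and no difference was detectable at this depth.

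**Figure D2:**
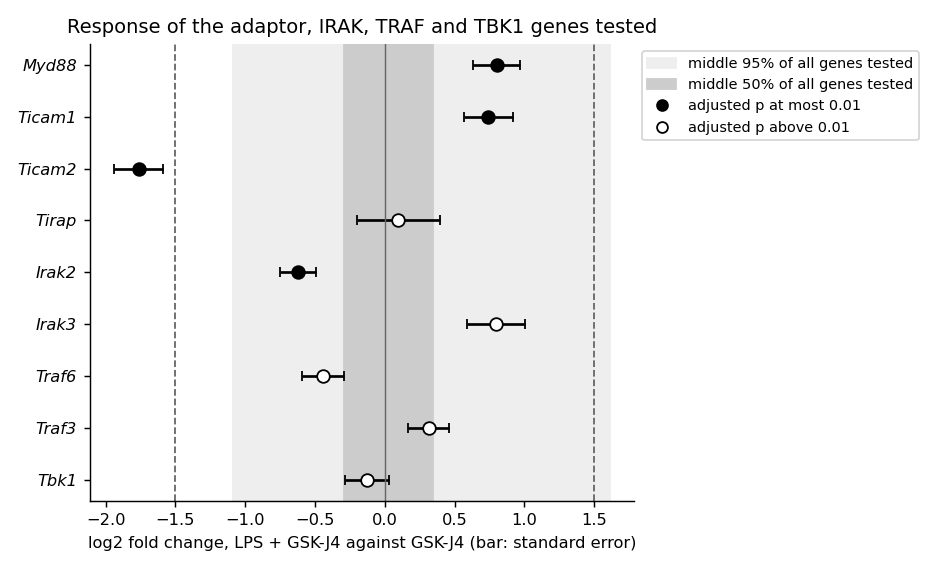
Log2 fold change of LPS + GSK-J4 against GSK-J4 for the 9 genes tested, with bars for the standard error, filled points for called genes and dashed lines at 1.5 in both directions. Grey bands run from the 25th to the 75th percentile (-0.29 to 0.35) and from percentile 2.5 to 97.5 (-1.09 to 1.61) of all genes tested, and Ticam2 is the point outside the wider band.

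Below the adaptors, none of Traf6, Traf3 and Tbk1 passed the test. Traf6 (chromosome 2, 101678429 to 101701669, plus strand), the ubiquitin ligase of the Myd88 arm, was at 68.9, 74.1 and 60.1 CPM in GSK-J4 libraries 1, 2 and 3 and 51.1, 55.7 and 42.9 CPM in LPS + GSK-J4 libraries 1, 2 and 3. The groups did not overlap, although the change was not called (log2 fold change -0.44, SE 0.15, adjusted p = 0.0405). Traf3 (chromosome 12, 111166370 to 111267153, plus strand), which links Ticam1 to the interferon branch, was at 37.3, 35.9 and 38.5 CPM in GSK-J4 libraries 1, 2 and 3 and 45.3, 44.3 and 49.1 CPM in LPS + GSK-J4 libraries 1, 2 and 3. Each LPS + GSK-J4 library was above each GSK-J4 library (log2 fold change 0.31, SE 0.15, adjusted p = 0.138). Tbk1 (chromosome 10, 121546455 to 121586787, minus strand), the kinase that acts on IRF3, was at 60.4, 58.1 and 49.1 CPM in GSK-J4 libraries 1, 2 and 3 and 61.7, 48.8 and 43.8 CPM in LPS + GSK-J4 libraries 1, 2 and 3, and the groups overlapped (log2 fold change -0.13, SE 0.16, adjusted p = 0.624). The known LPS target genes Tnf and Nfkbia, the gene of the inhibitor IκBα, had log2 fold changes of 6.95 and 3.13 in these libraries, larger than those of any of the 10 genes.

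Levels of the genes were compared per length, as CPM per kb of annotated exon. With GSK-J4 the order of the levels (mean ± SD, n = 3) was Irak2 at 43.3 ± 5.80, Tbk1 at 14.3 ± 1.52, Ticam2 at 14.2 ± 2.65, Ticam1 at 10.6 ± 2.00, Traf6 at 8.59 ± 0.894, Myd88 at 8.34 ± 0.607, Irak3 at 5.90 ± 1.72, Traf3 at 5.07 ± 0.176, Tirap at 1.52 ± 0.0313, Irak4 at 0.372 ± 0.0703. Parted from their neighbour in all libraries were Irak2 from Tbk1, Myd88 from Irak3, Traf3 from Tirap and Tirap from Irak4, and the others overlapped. With LPS + GSK-J4 the order was Irak2 at 28.0 ± 1.85, Ticam1 at 17.6 ± 2.5, Myd88 at 14.6 ± 1.22, Tbk1 at 13.2 ± 2.36, Irak3 at 10.4 ± 1.35, Traf6 at 6.33 ± 0.820, Traf3 at 6.29 ± 0.350, Ticam2 at 4.20 ± 0.418, Tirap at 1.64 ± 0.618, Irak4 at 0.582 ± 0.209. Here those parted were Irak2 from Ticam1, Irak3 from Traf6, Traf3 from Ticam2, Ticam2 from Tirap and Tirap from Irak4. Irak2 was highest and Irak4 lowest in both groups, Ticam2 went from rank 3 to rank 8, Ticam1 from 4 to 2 and Myd88 from 6 to 3. The exon lengths are those of GENCODE, and the annotation used for counting may differ. Ticam2 may be understated here, since 838 of its 5792 exon bases in GENCODE are shared with Tmed7. Over the other 4954 bases, an alternative added after the data were seen, it had 16.6 ± 3.10 with GSK-J4 (rank 2) and 4.91 ± 0.489 with LPS + GSK-J4 (rank 8).

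**Figure D3:**
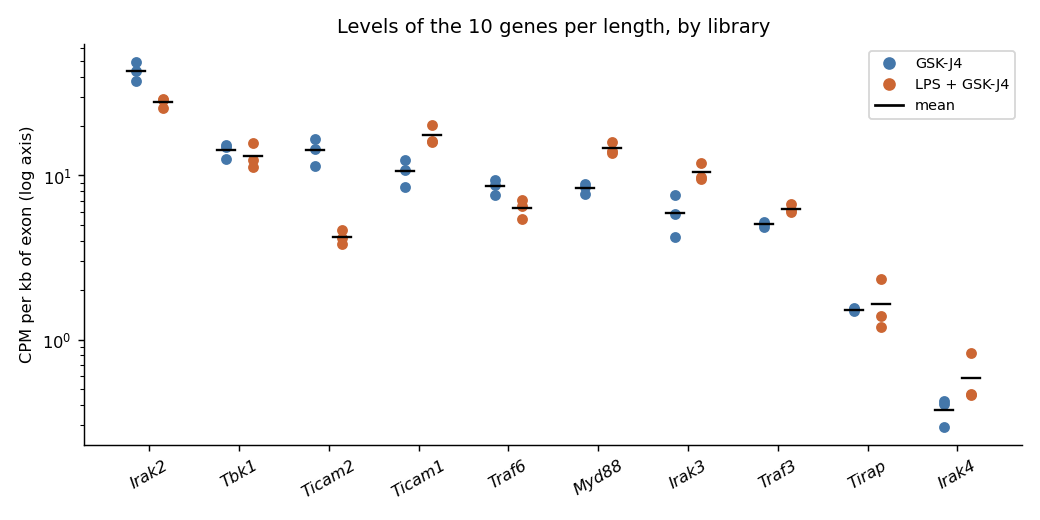
CPM per kb of annotated exon (log axis) of the 10 genes in each GSK-J4 library (blue) and LPS + GSK-J4 library (orange), ordered by the mean with GSK-J4, with short black lines for means. Irak2 is highest and Irak4 lowest in both groups, and Ticam2 drops from 14.2 to 4.20.

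A list of 47 other genes of the TLR4 pathway put these changes in context. Of the 43 that could be tested, 9 rose and 2 fell, beside 8.42% higher and 5.46% lower over all genes tested. The 5 past both thresholds were all higher, beside 2.95% of all genes. The median log2 fold change of the 43 genes was 0.02. In the receptor complex, Cd14, the co-receptor that passes LPS to TLR4, rose from 542 ± 31.5 to 1001 ± 69.1 CPM (SD, n = 3; log2 fold change 0.89, SE 0.11, adjusted p = 1.33e-05), as 1 of 4 genes. Tlr4 had 56.9 ± 10.6 CPM with GSK-J4 and 37.9 ± 10.5 CPM with LPS + GSK-J4 and was not called (log2 fold change -0.60, SE 0.20, adjusted p = 0.0394). Irak1, a kinase recruited beside Irak2, had 59.0 ± 5.31 and 53.5 ± 10.2 CPM (log2 fold change -0.14, SE 0.16, adjusted p = 0.567). Irak1bp1, which codes for a protein that binds Irak1, rose from 4.41 ± 1.07 to 10.8 ± 0.503 CPM (log2 fold change 1.25, SE 0.28, adjusted p = 0.00415) as 1 of 5 genes tested at this level, and it was called in 2 of the 6 comparisons that leave out a library. Those in which it was lost left out GSK-J4 library 2 or 3 or LPS + GSK-J4 library 1 or 2, with an adjusted p of up to 0.0199.

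Among the 5 other TRAF genes, Traf1 and Traf4 rose. Traf1, a known NF-κB target, went from 2.34 ± 1.07 to 20.9 ± 3.65 CPM (SD, n = 3; log2 fold change 3.08, SE 0.31, adjusted p = 2.18e-06) and Traf4 from 3.94 ± 0.718 to 11.9 ± 2.54 CPM (log2 fold change 1.56, SE 0.29, adjusted p = 0.00102). Of 6 ubiquitin enzymes tested, Peli1, a ligase that acts on IRAK proteins, rose from 54.1 ± 4.21 to 217 ± 30.1 CPM (log2 fold change 2.00, SE 0.14, adjusted p = 2.58e-08). Of 7 deubiquitinases and brakes, Tnfaip3 (A20), which removes ubiquitin chains from Traf6, rose from 180.3 ± 34.9 to 2216 ± 35.1 CPM (log2 fold change 3.61, SE 0.14, adjusted p = 1.60e-11). Zc3h12a (Regnase-1), which degrades cytokine mRNAs, rose from 48.0 ± 3.64 to 139 ± 39.5 CPM (log2 fold change 1.54, SE 0.18, adjusted p = 8.56e-06). Traf4 was under 1.5 without GSK-J4 library 3 (1.47) or LPS + GSK-J4 library 3 (1.39), and Zc3h12a without GSK-J4 library 2 (1.49) or LPS + GSK-J4 library 3 (1.29).

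Of the 9 TAK1 and IKK genes, Map3k8 (TPL2), which activates the ERK pathway, rose from 17.2 ± 3.03 to 38.1 ± 4.19 CPM (SD, n = 3; log2 fold change 1.17, SE 0.19, adjusted p = 0.000268), and Tab1, a partner of TAK1, fell from 24.3 ± 0.862 to 13.7 ± 2.45 CPM (log2 fold change -0.83, SE 0.20, adjusted p = 0.00649). Of the 7 partners of Tbk1, Tank, a scaffold that binds Traf3 and Tbk1, rose from 37.3 ± 7.95 to 70.1 ± 8.95 CPM (log2 fold change 0.89, SE 0.17, adjusted p = 0.00107), and Ripk1, which binds Ticam1, fell from 64.7 ± 6.48 to 43.9 ± 2.63 CPM (log2 fold change -0.56, SE 0.14, adjusted p = 0.00920). Both decreases were close to the threshold. With a library left out, Ripk1 was called in 0 of 6 comparisons (adjusted p from 0.0102 to 0.0663) and Tab1 in 1 of 6, that without LPS + GSK-J4 library 3 (adjusted p from 0.00438 to 0.0335).

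**Figure D4:**
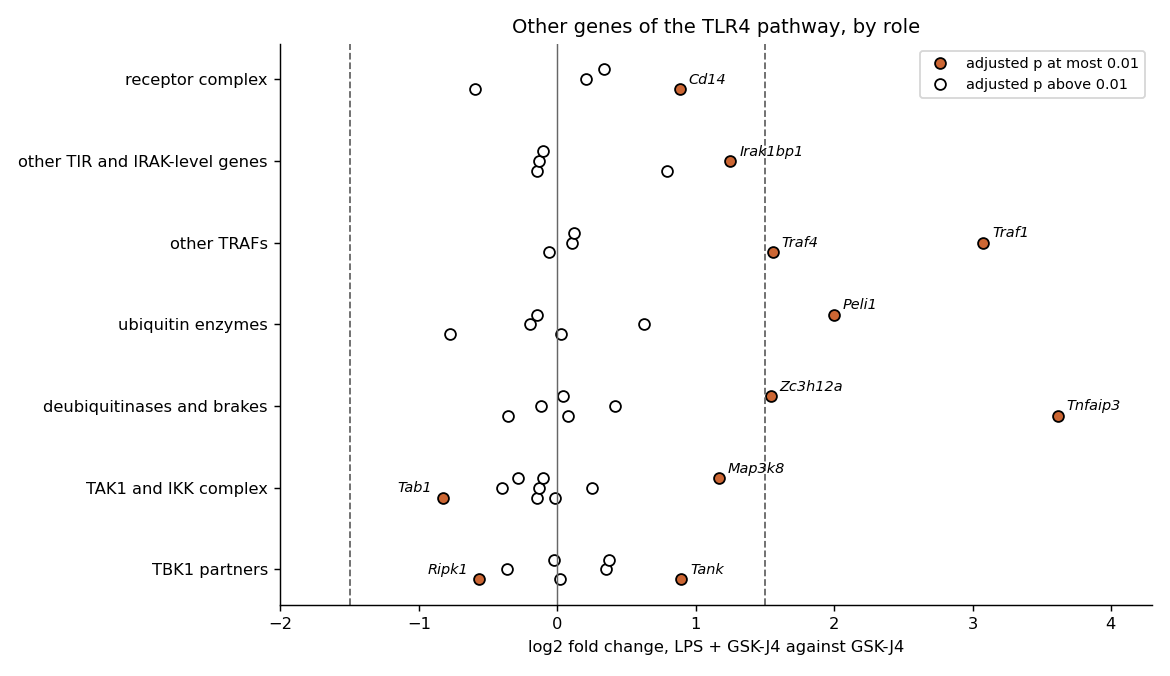
Log2 fold change of LPS + GSK-J4 against GSK-J4 for the 43 other pathway genes tested, by role, with filled and named points for called genes and dashed lines at 1.5 in both directions. The named points beyond 1.5 are Traf1, Traf4, Peli1, Tnfaip3 and Zc3h12a, and those below 0 are Tab1 and Ripk1.

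**Figure D5:**
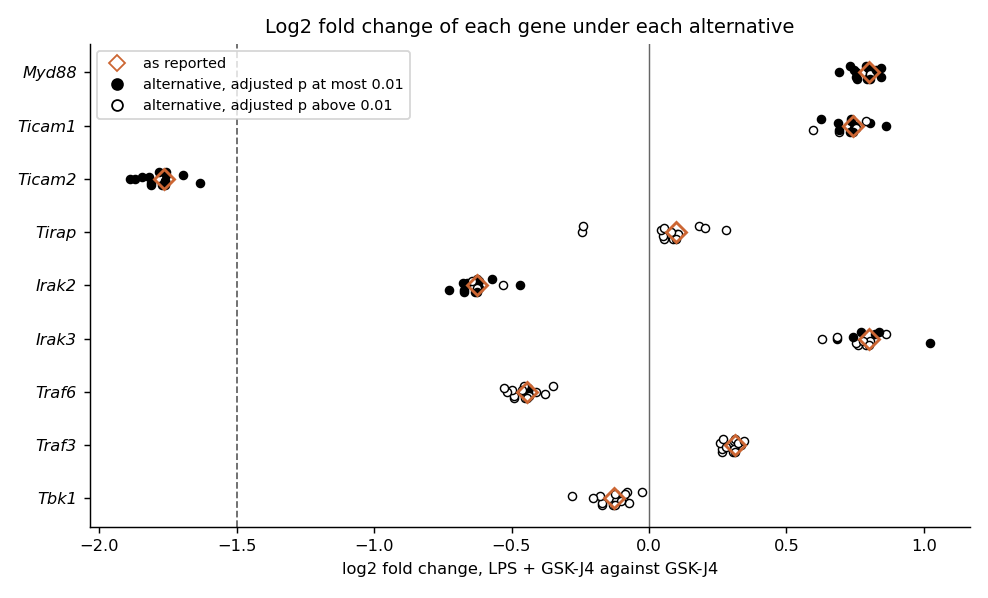
Log2 fold change of each of the 9 genes tested as reported (diamonds) and under 15 alternatives of scaling, counting, filter, model and libraries (points, filled where called), with a dashed line at 1.5 in the negative direction. Ticam2 lies between -1.89 and -1.63 under all of them, and Tirap alone has points on both sides of 0.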

How the data were processed

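The authors trimmed the reads with Trimmomatic 0.33, aligned them to mm10 with STAR 2.5.1 and deposited, for each library, the raw count of fragments on each gene. The annotation behind these counts is not given in the sources used here. Of the unstranded, same-strand and reverse-strand columns, the reverse-strand one was used, since the kit is directional. The 4 lines that tally unassigned fragments were left out. In each library 59.3 to 62.6% of uniquely mapped fragments did not lie on an exon of the strand counted. Groups and replicate numbers were read from the titles.

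Counts were tested in R 4.3.3 with edgeR 4.0.16 (TMM, robust quasi-likelihood test, no covariates). Genes were kept by filterByExpr (minimum count 10, total at least 15). The model was checked on simulated data. All changes put into that simulation were larger than those of the 10 genes, so it does not bear on changes of their size. GENCODE M21 gave positions and exon lengths. Alternatives were the DESeq2 1.42.0 Wald test, its size factors in edgeR, upper-quartile factors, removal of Rn45s, Mir6236 and Lars2, unstranded counts, no filter, at least 10 counts in every library, an adjusted p of up to 0.05, a replicate block and omission of each library. Omission of both libraries numbered 3 and the level of Ticam2 over unshared exon bases were added after seeing the data. The genes, lists, markers and tests were chosen with earlier results of these data known. All 10 genes are named. From the pathway list, Irak1, Tlr4, the genes past both thresholds and the called gene with the largest change of each role are named. Tab1 and Ripk1, the only 2 called lower, were named after their values were seen.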

Additional observations from a re-analysis of the deposited data

Results flagged for a closer look

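Fragments on the strand opposite to each gene entered the report only within the unstranded counts of 1 alternative, and for Tbk1 more of them were counted with LPS + GSK-J4. There were 6, 3 and 9 of them in LPS + GSK-J4 libraries 1, 2 and 3, 18 in all, and 0, 1 and 3 in GSK-J4 libraries 1, 2 and 3. They made up 3.66, 2.29 and 7.83% and 0, 0.385 and 2.19% of the fragments of Tbk1 on either strand, respectively. Over all genes, Rn45s included, this share was 0.966 to 1.38% per library. For Tirap it was 16.7, 5.26 and 3.45% and 0, 0 and 4.76% in the same order. Shares of several percent were thus not particular to Tbk1. The counts are few, and the difference of Tbk1 between the groups was not tested.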

How the results depend on the processing

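Over 15 alternatives Ticam2 kept both thresholds in all, Myd88 kept its call in 14, Irak2 in 12 and Ticam1 in 11, and none of these 4 changed direction. Without Rn45s, Mir6236 and Lars2 their log2 fold changes were -1.76, 0.80, -0.62 and 0.74. Tirap, which was not called, ranged from -0.24 to 0.28. It was -0.24 without LPS + GSK-J4 library 3 and -0.24 without both libraries numbered 3, and its values with 1 library left out reached from -0.24 to 0.28. Of the 9 genes, DESeq2 called 1 higher, and with each library left out 0 to 3 were higher and 1 to 2 lower. The counts without GSK-J4 library 2 were 0 higher and 1 lower. Of the pathway genes, DESeq2 called 1 lower, and with each library left out 0 to 1 were lower and 3 to 5 past both thresholds upwards. At least 10 counts in every library left 3 past both thresholds upwards, and omission of both libraries numbered 3 left 3. Over all genes, 853 were called higher and 553 lower. These were 1386 and 1004 at an adjusted p of up to 0.05, 858 were lower with no filter, and 312 to 679 were lower with each library left out, the fewest without LPS + GSK-J4 library 2. The cause of these shifts was not tested. Low counts limited Irak4 and Tirap most.

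A replicate block on the numbers in the titles called 1259 genes higher and 1016 lower, among them 4 pathway genes lower. It added calls for Irak3, at 0.82 (adjusted p = 8.72e-05), and Traf6, at -0.44 (adjusted p = 0.00360), and changed no other call of the 9 genes. The deviations of same-numbered libraries from their group means had correlations of -0.0102, 0.117 and 0.295. Not every library correlated best with its own number, so the numbers were not taken to pair the libraries. Those numbered 3 correlated best with each other, at 0.295. With libraries 1 and 2 of the other group they had correlations of -0.290 to -0.0582. Whether they shared a batch was not tested.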

Other observations

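The genes whose log2 CPM over the 6 libraries was most like that of Ticam2 were Vav1 (Pearson's r = 0.998), Bnip3 (r = 0.998) and Adck3 (r = 0.997). Their log2 fold changes were -0.82, -1.28 and -1.67. The 6 points share the difference between the groups and the library depths, so these values describe the profile and carry no p. Sarm1, a gene of a further TIR domain protein, was too low to test, with 5, 4 and 2 counts in GSK-J4 libraries 1, 2 and 3 and 8, 8 and 6 counts in LPS + GSK-J4 libraries 1, 2 and 3.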
